A study of Mus musculus with 4 samples.

Results

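Psca, Tspan8, Sprr2a1, Sprr2a2, Wfdc2 and Nkain4 are 6 genes of sorted mouse prostate stroma that were chosen by their higher values in libraries from proximal than from distal ducts. They are 6 of 25582 genes to which deposited transcripts could be assigned, and all 6 passed the minimum level for testing, as did 11216 genes in all. Each passed that minimum (at least 1 FPKM in at least 2 libraries) through the proximal libraries, where it was high. FPKM is a level scaled by transcript length and by the number of mapped fragments. Because the difference between regions chose these genes, their proximal and distal values below are a description and carry no test.

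The cells came from adult C57BL/6 mice and were sorted by flow cytometry as lineage-negative, CD24-negative, CD49f-negative and Sca-1-positive stromal cells. There were 2 libraries from distal ducts (distal 2 and distal 3) and 2 from proximal ducts (proximal 2 and proximal 3), with no further treatment or allele named. Proximal ducts are those nearest the urethra, and distal ducts lie toward the tips of the lobes. No label ties a library to an animal, so a p-value below reflects no more than how far these libraries spread, possibly for technical reasons.

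Most of these genes are known from epithelium rather than from fibroblasts. Psca encodes a small lipid-anchored surface protein of the Ly6 family, known as prostate stem cell antigen and abundant in urothelium and in luminal cells near the urethra. Tspan8 encodes a tetraspanin, a membrane protein that organises other surface proteins into patches and is common in glandular epithelia. The Sprr2a genes encode small proline-rich proteins, which are crosslinked into the cornified envelope of stratified epithelia and are also induced in stressed simple epithelia. Wfdc2 encodes a secreted protein with whey acidic protein domains, made by ductal and airway epithelium. Nkain4 encodes a membrane protein that interacts with the sodium pump.

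The Sprr2a genes are neighbouring copies on chromosome 3, and their coding sequences decide how far they can be told apart. The coding stretch of Sprr2a1 (chr3:92219092-92219343, plus strand, GRCm38, the assembly of mm10) has 252 bases and lies whole in the second of 2 exons. That of Sprr2a2 (chr3:92253905-92254156) had 0 differences from it over the 252 bases. That of a further copy, Sprr2a3 (chr3:92288588-92288839), had 3, given as G63A, G159T and A192T with the base of Sprr2a1 first and positions counted from 1 at the start codon. The sequences are from GENCODE M21 transcripts, and capitals mark the bases where Sprr2a3 differs.
Sprr2a1: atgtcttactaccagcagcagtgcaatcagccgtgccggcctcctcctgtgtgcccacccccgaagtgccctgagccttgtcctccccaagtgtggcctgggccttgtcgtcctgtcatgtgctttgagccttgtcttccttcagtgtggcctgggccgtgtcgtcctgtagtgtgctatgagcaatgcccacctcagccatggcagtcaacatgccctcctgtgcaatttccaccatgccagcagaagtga
Sprr2a3: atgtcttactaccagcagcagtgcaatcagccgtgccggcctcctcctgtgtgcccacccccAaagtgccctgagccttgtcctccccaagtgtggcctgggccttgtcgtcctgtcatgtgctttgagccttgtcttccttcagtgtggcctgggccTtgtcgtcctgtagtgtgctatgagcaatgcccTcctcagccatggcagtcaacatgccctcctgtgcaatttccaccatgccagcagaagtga

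A fragment that lies inside the coding stretch therefore fits Sprr2a1 and Sprr2a2 equally well, and the separate values of these 2 genes depend on how the quantification divided such fragments. Their sum does not depend on that division between the 2 genes, and it is used below beside the separate values. The sum still depends on how fragments were divided between transcript models of different length. It also depends on the division with Sprr2a3 of fragments that cover none of the 3 differing bases.

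Promoter sequences (RefSeq, GRCm38.p6) were found for Sprr2a1, Sprr2a2, Tspan8 and Wfdc2, and are shown because these genes had high values in the same libraries. The 250 bases before the start site of Sprr2a1 (chr3:92215585-92215834) and of Sprr2a2 (chr3:92250397-92250646) had 0 differences, so 1 of them is shown, with Tspan8 (chr10:115817034-115817283) and Wfdc2 (chr2:164562465-164562714), all on the plus strand. Capitals mark the 1 match found among 5 motifs searched on both strands, none of which contains another.
Sprr2a1: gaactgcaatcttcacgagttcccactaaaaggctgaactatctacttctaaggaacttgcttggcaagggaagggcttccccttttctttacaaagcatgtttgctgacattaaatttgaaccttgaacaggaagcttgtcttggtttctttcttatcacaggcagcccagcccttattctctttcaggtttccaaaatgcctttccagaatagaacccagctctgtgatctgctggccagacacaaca
Tspan8: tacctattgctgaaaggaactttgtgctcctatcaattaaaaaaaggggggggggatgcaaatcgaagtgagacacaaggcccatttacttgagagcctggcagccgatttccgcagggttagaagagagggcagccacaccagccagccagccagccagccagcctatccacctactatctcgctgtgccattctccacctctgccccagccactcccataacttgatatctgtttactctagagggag
Wfdc2: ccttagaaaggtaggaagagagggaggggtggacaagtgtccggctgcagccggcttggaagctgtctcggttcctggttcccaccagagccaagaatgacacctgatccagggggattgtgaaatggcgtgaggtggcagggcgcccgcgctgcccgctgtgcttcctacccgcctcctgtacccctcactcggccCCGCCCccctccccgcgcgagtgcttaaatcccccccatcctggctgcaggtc

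The match is a GC box (GGGCGG) on the minus strand of the Wfdc2 promoter, from -53 to -48 counted from the start site. Such a match was present in 32.7% of 32851 promoter windows of the same length. The TATA box (TATAAA), the CCAAT box (CCAAT), the AP-1 motif (TGANTCA) and the GATA motif (AGATAA) had no match in these windows, against 12.4%, 33.8%, 6.75% and 9.99% of all windows. The 3 distinct promoters thus shared none of the 5 motifs. A match or its absence describes these letters only.

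Psca was listed at 0 in distal 2 and had a level of 0.0441 FPKM in distal 3, of 15.4 FPKM in proximal 2 and of 65.7 FPKM in proximal 3. The libraries of the regions did not overlap, and proximal 3 was 4.26-fold above proximal 2. The gene has 1 transcript in the files, 856 bases long, at chr15:74714839-74717065 on the plus strand (mm10). The authors' bounds for it ran from 13.6 to 17.3 FPKM in proximal 2 and from 62.0 to 69.4 FPKM in proximal 3. Psca reached 64.3% of the way up the ranking of genes at or above 1 FPKM in proximal 2 and 90.7% in proximal 3.

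Tspan8 had a level of 0.305 and 0.343 FPKM in distal 2 and distal 3 and of 27.1 and 57.8 FPKM in proximal 2 and proximal 3. Its proximal level was 88.8-fold above the distal level within the libraries numbered 2 and 168-fold within those numbered 3. It has 3 transcripts over chr10:115817284-115849893 (plus strand), with lengths of 1416, 1380 and 1522 bases. The transcript of 1416 bases gave 48.6% of the gene's FPKM in proximal 2 and 38.1% in proximal 3, that of 1522 bases 37.5% and 43.2%, and that of 1380 bases 13.9% and 18.7%. All 3 transcripts were present in both proximal libraries, and the largest share lay with a different transcript in each. The authors' bounds of the transcripts of 1416 and 1522 bases overlapped in both, so their order is not resolved. They ran from 11.53 to 14.78 and from 8.74 to 11.54 FPKM in proximal 2, and from 19.8 to 24.2 and from 22.7 to 27.2 FPKM in proximal 3.

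The Sprr2a genes had the highest levels of the group on the FPKM scale. Sprr2a1 had 1.21 and 0.512 FPKM in distal 2 and distal 3 and 38.6 and 73.8 FPKM in proximal 2 and proximal 3. Sprr2a2 had 0.258 and 0.465 FPKM in the distal and 38.6 and 73.4 FPKM in the proximal libraries. In the proximal libraries the copies were nearly equal, and no proximal value overlapped a distal one. Their sum was 1.47 and 0.976 FPKM in distal 2 and distal 3 and 77.2 and 147 FPKM in proximal 2 and proximal 3.

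Most of this Sprr2a level came from very short transcript models. Each copy is listed with a long model of 3547 bases, at chr3:92215835-92222491 for Sprr2a1 and chr3:92250647-92257304 for Sprr2a2, and with a second model that holds only the coding stretch of 252 bases. The short models gave 88.2% of the summed FPKM in proximal 2 and 86.0% in proximal 3. Among all tested genes, 62 (0.553%) had a transcript under 300 bases as their highest. With the long models alone, the sum was 0.424 and 0.976 FPKM in distal 2 and distal 3 and 9.12 and 20.6 FPKM in proximal 2 and proximal 3. The ratio of the proximal to the distal mean was 91.6 with all models and 21.2 with the long models, so the order of the regions was the same and the size was not. On the long models, Sprr2a1 and Sprr2a2 stood below Psca and Tspan8 in both proximal libraries.

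**Figure D1:**
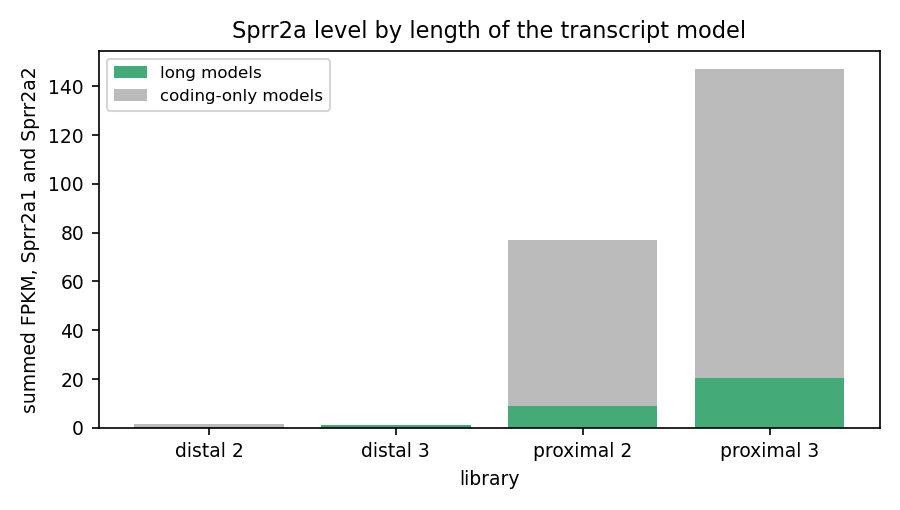
Summed FPKM of Sprr2a1 and Sprr2a2 in each library (bars), split into the long models of 3547 bases and the coding-only models of 252 bases. The coding-only models make up 88.2% of the bar in proximal 2 and 86.0% in proximal 3, and both distal bars stay under 1.5 FPKM.

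Sprr2a3, the copy with 3 coding differences, had 0.0218 and 0.239 FPKM in distal 2 and distal 3 and 2.61 and 8.60 FPKM in proximal 2 and proximal 3. It is listed with 1 model of 695 bases and no coding-only model, so its FPKM is not on the same footing as the sums above. Its proximal libraries also lay above both distal libraries, and adding it to the sum of the other 2 copies gave 79.8 and 156 FPKM in proximal 2 and proximal 3. Among other Sprr genes Sprr1a was not low, with 12.0 and 23.0 FPKM in the distal and 29.9 and 197 FPKM in the proximal libraries. The following Sprr genes, named after their values were seen, were low. Sprr2f was at a listed 0 in distal stroma and had 1.04 and 0.0826 FPKM in proximal 2 and proximal 3, Sprr2g did not exceed 0.637 FPKM and Sprr2h did not exceed 0.463 FPKM. Sprr2b, Sprr2d, Sprr2e, Sprr2i, Sprr2k, Sprr3 and Sprr4 were listed at 0 in all 4 libraries.

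Wfdc2 was at a listed 0 in distal 2 and distal 3 and reached a level of 3.35 FPKM in proximal 2 and 6.62 FPKM in proximal 3. Its 1 transcript, 708 bases long at chr2:164562716-164568506 (plus strand), had authors' bounds of 2.38 to 4.33 FPKM in proximal 2 and 5.28 to 7.95 FPKM in proximal 3. It was the lowest of the 6 genes in both proximal libraries. The files mark the estimate as sound (status OK) in all 4 libraries, and no fold is given against values listed at 0.

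Nkain4 had a level of 0.217 and 0.773 FPKM in distal 2 and distal 3 and of 4.84 and 12.1 FPKM in proximal 2 and proximal 3. It was 22.3-fold higher in proximal stroma within number 2 and 15.7-fold within number 3, and the lowest proximal value was 6.26-fold above the highest distal value. Of its 3 transcripts (chr2:180934772-180954699, minus strand), the one of 950 bases gave 100% of the FPKM in every library, and those of 865 and 663 bases were listed at 0 throughout. For the transcript of 950 bases the authors' bounds in distal 3 ran from 0.417 to 1.13 FPKM, so a low level of Nkain4 was measured in that distal library.

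**Figure D2:**
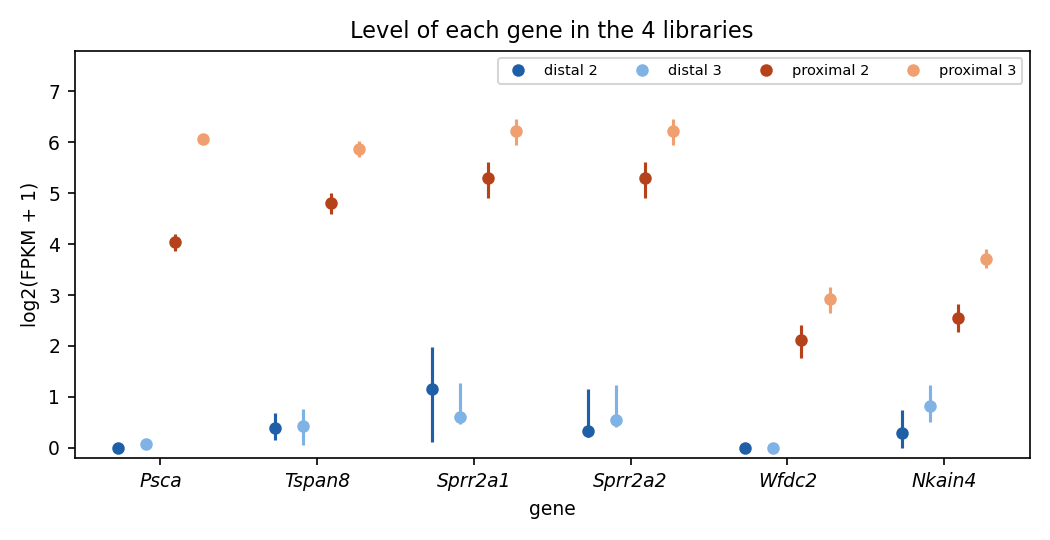
Level of the 6 genes as log2(FPKM + 1) (y axis) in the 4 libraries. Points are deposited values summed per gene and vertical lines run from the summed lower to the summed upper bounds of the authors. For each gene both proximal points lie above both distal points, and proximal 3 lies above proximal 2.

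On the log2(FPKM + 1) scale, which understates the change of low genes, the difference of proximal minus distal means was 5.02 for Psca, 4.94 for Tspan8, 4.89 for Sprr2a1 and 5.32 for Sprr2a2. It was 2.53 for Wfdc2 and 2.58 for Nkain4. With a pseudocount of 0.1 in place of 1 it was 8.06 for Psca, 5.59 for Wfdc2 and 3.89 for Nkain4, so the size and order of these differences depend on the pseudocount. For the Sprr2a sum it was 5.61 with all models and 3.14 with the long models. In the libraries numbered 2 and 3 separately it was 4.04 and 6.00 for Psca, 4.43 and 5.45 for Tspan8, 2.12 and 2.93 for Wfdc2 and 2.26 and 2.89 for Nkain4. On this scale every one of these differences was larger within number 3 than within number 2. For Nkain4 that order depends on the pseudocount, since its plain fold was 22.3 within number 2 and 15.7 within number 3. Wfdc2 was listed at 0 in both distal libraries, so its 2 differences restate its proximal levels.

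In all 6 genes the 2 proximal values exceeded the 2 distal values, as they did in 12.9% of all tested genes. All 6 also had a difference of at least 1 on the log2(FPKM + 1) scale in both numbers, as did 1.91% of tested genes. Since the contrast chose the genes, nothing is read from these counts. The reverse order, both distal above both proximal libraries, was found for 8.67% of tested genes. Across all genes 0.0% passed the test, which was limma with region as the only term and Benjamini-Hochberg adjustment over 11216 genes. Without adjustment, 354 genes had a p under 0.05.

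The order of the levels in proximal 2 was the Sprr2a copies, Tspan8, Psca, Nkain4 and Wfdc2. In proximal 3 Psca stood above Tspan8, but their bounds of 62.0 to 69.4 and 51.8 to 63.8 FPKM overlapped. In proximal 2 the bounds of Tspan8 (23.1 to 31.0 FPKM) lay above those of Psca. Nkain4 (3.85 to 6.09 FPKM, bounds summed over its transcripts) and Wfdc2 overlapped in proximal 2 and did not in proximal 3, where Nkain4 ran from 10.6 to 14.0 FPKM. All of these genes lay below the minimum of 1 FPKM in both distal libraries, except Sprr2a1 in distal 2.

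The genes were chosen with their proximal values known, so the spread between the proximal libraries is a description as well. All 6 were higher in proximal 3, and the values of Sprr2a1 and Sprr2a2 rest partly on fragments that fit both. The ratio of proximal 3 to proximal 2 was 4.26 for Psca, 2.51 for Nkain4, 2.14 for Tspan8, 1.97 for Wfdc2, 1.91 for Sprr2a1 and 1.90 for Sprr2a2. Over all tested genes the median of this ratio was 0.745, and 33.2% of genes had a ratio above 1. The ratio of Psca was reached by 2.38% of tested genes and that of Sprr2a2 by 11.1%. This is a comparison of 1 library with 1 library and carries no test.

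Transcripts of epithelial markers were present in all 4 libraries, although the sort left out cells with CD24 and CD49f. In bulk samples, fewer cells of a type and less RNA per cell cannot be told apart. Of 19 general epithelial markers, 14 were tested and 0 were listed at 0 in all libraries. In 8 of the 14 both proximal values exceeded both distal values and in 0 the reverse, against 12.9% and 8.67% of all tested genes. Some of the 8, among them Elf3 and Ehf, met the minimum only through the proximal libraries, which fixed their order. The median log2 difference of the 14 was 1.24 against 0.09 over all tested genes, and 0 passed over all genes (limma, smallest adjusted p = 0.907). The summed level of the list was 56.4 and 113 FPKM in distal 2 and distal 3 and 86.3 and 541 FPKM in proximal 2 and proximal 3. The sum was higher in proximal than in distal stroma within each number, and it was higher in distal 3 than in proximal 2.

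The general markers with the largest differences among those without overlap were Krt19, Cldn3, Elf3 and Cldn7. Krt19, a keratin of simple epithelia, had 7.93 and 15.2 FPKM in the distal and 22.0 and 156 FPKM in the proximal libraries. The tight junction protein Cldn3 had 1.97 and 2.88 against 5.03 and 22.6 FPKM, its relative Cldn7 1.68 and 3.55 against 3.59 and 17.5 FPKM, and the transcription factor Elf3 0.202 and 0.448 against 2.53 and 5.10 FPKM. Other general markers overlapped between the regions. Epcam, an adhesion protein of epithelia, had 2.97 and 7.40 FPKM in the distal and 3.89 and 30.1 FPKM in the proximal libraries. Cd24a, which encodes the CD24 of the sort, had 9.64 and 19.1 against 8.06 and 54.6 FPKM, and the keratin Krt18 12.1 and 23.3 against 9.32 and 64.0 FPKM. The part of epithelial RNA in the values of the 6 genes was not tested.

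The epithelial lists differed from one another when proximal 2 was set beside distal 3. This pair differs in library number as well as in region. Within each number the summed general and basal markers were both higher in proximal stroma. The basal sum was 15.1 FPKM in distal 2 and 26.2 FPKM in proximal 2, and 66.5 FPKM in distal 3 and 157 FPKM in proximal 3. The summed general markers were 0.766 times as high in proximal 2 as in distal 3, and the summed basal markers, among them Krt14 and Krt15, 0.394 times. The summed markers of proximal luminal and urethral epithelium were 4.80 times as high and the summed urothelial markers 2.24 times. Much of the proximal luminal sum was 1 gene, Clu, with 10.9 of 21.6 FPKM in distal 3 and 54.9 of 103 FPKM in proximal 2. Of the tested markers, 8 of 14 general, 0 of 8 basal, 7 of 8 proximal luminal and urethral and 4 of 4 urothelial ones were higher in proximal 2, as were 67.2% of all tested genes. For markers that met the minimum only through the proximal libraries, such as Krt4, Krt7, Cyp2f2, Elf3 and Upk1a, this order was fixed by the filter. In this pair of libraries, which is 1 of 4 such pairs, Psca was at 15.4 against 0.0441 FPKM, Tspan8 at 27.1 against 0.343 FPKM and Nkain4 at 4.84 against 0.773 FPKM.

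**Figure D3:**
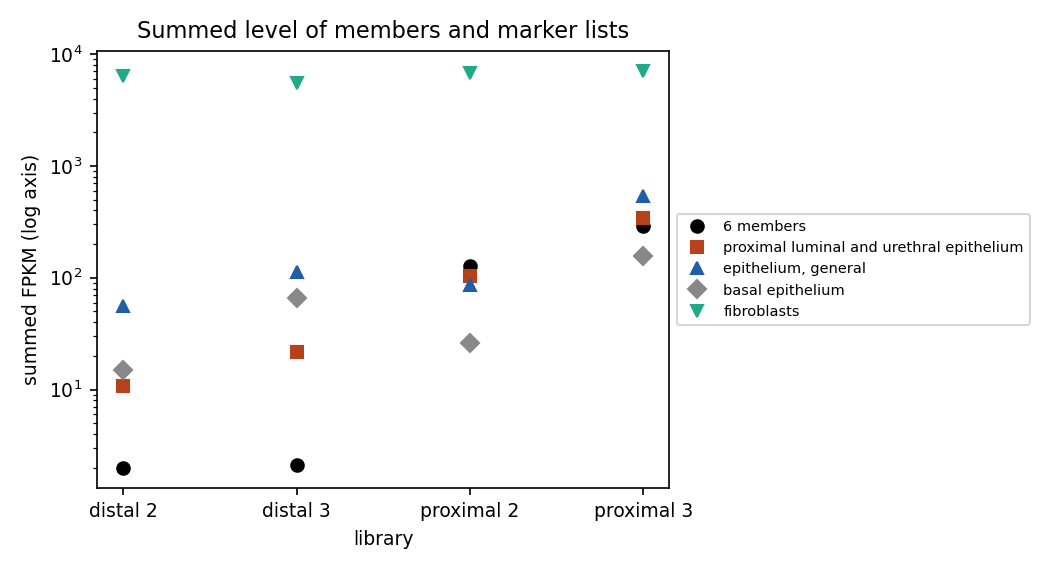
Summed FPKM (log axis) of the 6 genes and of 4 marker lists in each library. The 6 genes sum to 1.99 and 2.14 FPKM in the distal libraries and to 128 and 289 FPKM in the proximal libraries. The general epithelial list stands at 56.4 and 113 FPKM in the distal and 86.3 and 541 FPKM in the proximal libraries. The proximal luminal list stands at 10.8 and 21.6 against 103 and 341 FPKM, and Clu alone gives 54.9 and 203 FPKM of its proximal sums.

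Known genes of the luminal epithelium next to the urethra ran in the same direction as the 6 genes. Of 12 markers of proximal luminal and urethral epithelium 8 were tested, and 7 of these had both proximal above both distal libraries and 0 the reverse. Some of the 7, among them Krt4, Krt7 and Cyp2f2, lay under 1 FPKM in both distal libraries. They met the minimum only through the proximal libraries, which fixed their order, and the list was chosen with earlier results known. Over all tested genes these orders were found for 12.9% and 8.67%. The median difference of the 8 markers was 2.86 on the log2(FPKM + 1) scale, against 0.09 over all tested genes. Adjusted over all genes 0 passed (limma, smallest adjusted p = 0.492), and 6 had an unadjusted p under 0.05. The summed level of the list was 10.8 and 21.6 FPKM in distal 2 and distal 3 and 103 and 341 FPKM in proximal 2 and proximal 3. Clu alone gave 54.9 and 203 FPKM of the 2 proximal sums.

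The leading genes of that list were Clu, Cyp2f2, Krt7 and Cldn10. Clu, the secreted chaperone clusterin, had 5.15 and 10.9 FPKM in the distal and 54.9 and 203 FPKM in the proximal libraries, a log2 difference of 3.64 ± 0.72 (SE). Cyp2f2, a cytochrome P450 enzyme, had 0.101 and 0.0541 FPKM in the distal and 7.69 and 19.1 FPKM in the proximal libraries. Cldn10, a tight junction protein, had 2.90 and 1.32 FPKM against 20.8 and 23.2 FPKM, and the keratin Krt7 0.307 and 0.590 FPKM against 5.07 and 33.8 FPKM. None of these 4 genes overlapped between the regions, and none passed the test over all genes.

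The marker lists differed in the ratio between the proximal libraries. The median ratio of proximal 3 to proximal 2 was 7.09 over 8 basal markers, 5.58 over 14 general epithelial markers and 3.09 over 8 proximal luminal and urethral markers. It was 0.909 over 13 fibroblast markers. The 6 genes, at 1.90 to 4.26, lay below the general and basal medians and above the fibroblast median. Psca lay above the proximal luminal median and the others below it. The ranges of the lists overlapped with the 6 genes. They were 0.617 to 8.79 for general, 1.91 to 26.3 for basal, 1.12 to 37.0 for proximal luminal and 0.466 to 2.85 for fibroblast markers.

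**Figure D4:**
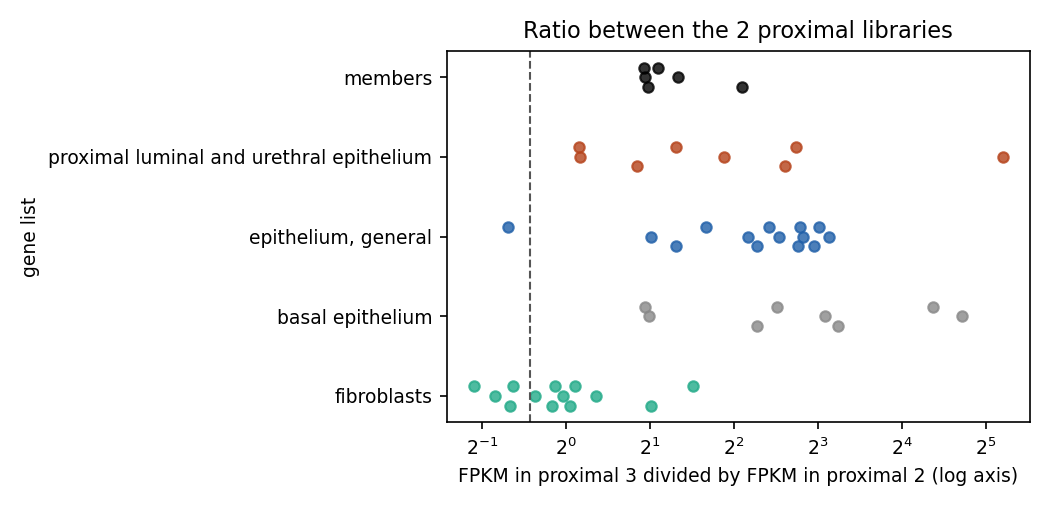
Ratio of FPKM in proximal 3 to FPKM in proximal 2 (log axis) for each of the 6 genes and each tested marker of 4 lists (points). The dashed line is the median of all tested genes, 0.745. The 6 genes lie between 1.90 and 4.26, and the general epithelial markers have a median of 5.58 and a range of 0.617 to 8.79.

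Lists of other cell types had smaller median differences than the proximal luminal list. Of the 9 urothelial markers 4 were tested and all 4 had both proximal above both distal libraries, as did 12.9% of all tested genes. The uroplakin Upk1a met the minimum only through the proximal libraries, which fixed its order. The 4 markers had a median log2 difference of 0.70, and 0 passed over all genes. Their levels were low: the list summed to 4.96 and 5.07 FPKM in the distal and 11.3 and 10.9 FPKM in the proximal libraries, and Upk2 and Upk3a, defining proteins of the urothelial surface, did not exceed 0.203 FPKM. Of 10 mesothelial markers 4 were tested, 2 with proximal and 2 with distal above (median 0.53), against 12.9% and 8.67% of all tested genes. Of these, 2 had an unadjusted p under 0.05 (limma) and 0 passed over all genes. Lrrn4, Gpm6a and Muc16 were listed at 0 in all libraries and Msln did not exceed 0.0187 FPKM. The mesothelial list summed to 35.4 and 23.6 FPKM in the distal and 35.1 and 22.8 FPKM in the proximal libraries, most of it from Wt1. Of 15 secretory luminal markers 7 were tested, 3 with proximal and 1 with distal above (median 0.18), against 12.9% and 8.67% of all tested genes. The list summed to 194 and 265 FPKM in the distal and 124 and 364 FPKM in the proximal libraries.

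The labelled stromal identity was seen in its markers. All 13 fibroblast markers were tested, and their summed level was 6388 and 5510 FPKM in the distal and 6738 and 7106 FPKM in the proximal libraries. Of the 13, 4 had proximal and 1 had distal above (median -0.01), against 12.9% and 8.67% of all tested genes. The 1 with distal above was Ly6a, which encodes the Sca-1 of the sort. It had 1016 and 868 FPKM in the distal and 687 and 738 FPKM in the proximal libraries. Over the 4 libraries the summed markers ranged from 9.78 to 10.8 FPKM for endothelium and from 2.91 to 4.62 FPKM for leukocytes. Those of Schwann cells and neurons summed to 18.5 and 24.1 FPKM in the distal and 10.8 and 15.1 FPKM in the proximal libraries. Of 3 tested, 0 had proximal and 2 had distal above. Smooth muscle markers summed to 407 and 291 against 369 and 209 FPKM, and of 8 tested 1 had proximal and 2 had distal above. Erythroid markers ranged from 0.0645 FPKM in proximal 2 to 30.5 FPKM in proximal 3. No call over all genes was made in any of these lists (limma, 0 calls).

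The families of the 6 genes differed from one another in how many members lay higher in proximal stroma. Among 32 genes of the Ly6 and uPAR family, to which Psca belongs, 11 were tested. Of these, 3 had proximal and 4 had distal above, against 12.9% and 8.67% of all tested genes. The median log2 difference of the 11 was 0.06, and -0.13 and -0.02 under quantile normalization and median ratio scaling. Ly6k had 7.87 and 6.95 FPKM in the distal and 10.3 and 14.6 FPKM in the proximal libraries, and Cd59a, an inhibitor of the complement pore, 6.82 and 4.86 against 10.6 and 8.46 FPKM. Psca was 0 to 0.0441 FPKM in distal stroma, where its relative Ly6a was at 868 FPKM or more.

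Of 28 tetraspanins other than Tspan8, 24 were tested, 8 with proximal and 1 with distal above, against 12.9% and 8.67% of all tested genes. Upk1a met the minimum only through the proximal libraries, which fixed its order. The median log2 difference of the 24 was 0.25. Tspan1 had 2.87 and 4.58 FPKM in the distal and 5.36 and 16.4 FPKM in the proximal libraries, Tspan18 7.55 and 3.27 against 9.68 and 12.7 FPKM, and the uroplakin Upk1a 0.206 and 0.473 against 1.51 and 2.83 FPKM. These differences, at most 1.22 on the log2(FPKM + 1) scale, were smaller than the 4.94 of Tspan8.

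Among 26 other genes of the small proline-rich and cornified envelope group, 3 were tested. All 3 had both proximal above both distal libraries, as did 12.9% of all tested genes. For Sprr2a3, which met the minimum only through the proximal libraries, that order was fixed by the filter. The 3 had a median log2 difference of 2.20, 2 had an unadjusted p under 0.05 (limma) and 0 passed over all genes. Besides Sprr2a3 these were Sprr1a, a crosslinked precursor of the envelope, with 12.0 and 23.0 FPKM in the distal and 29.9 and 197 FPKM in the proximal libraries, and periplakin (Ppl), which links the envelope to keratins, with 0.654 and 1.08 against 6.28 and 8.98 FPKM. The remaining 23 did not reach the minimum, and 9 of the 26 were listed at 0 in all libraries. Filaggrin (Flg) was listed at 0 in all 4, and loricrin (Lor) did not exceed 1.24 FPKM.

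Of 22 other genes with whey acidic protein domains only Wfdc1 and Wfdc6a were tested, and both overlapped between the regions. Wfdc1 had 118 and 85.2 FPKM in the distal and 113 and 74.4 FPKM in the proximal libraries, and Slpi did not exceed 0.301 FPKM. Among 16 genes of the Nkain family and the sodium pump 10 were tested, 6 with proximal and 1 with distal above (median 0.39). Over all tested genes these shares were 12.9% and 8.67%. The pump subunit Atp1b1 was at 0 and 5.40 FPKM in the distal and 12.9 and 41.8 FPKM in proximal stroma, and the pump regulator Fxyd3 at 0 and 4.67 against 7.82 and 23.2 FPKM. The other pump subunits tested differed less, and 0 of the 10 passed over all genes.

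Outside the 6 genes, those with the most similar pattern were found by the Euclidean distance between log2(FPKM + 1) values centred on their mean over the 4 libraries. The nearest genes to Psca were Lgr5 (distance 0.880), Aqp1 (0.931), Mir1191 (0.969), Ptgds (1.38) and Clu (1.51), against a median of 5.26 over all genes. Those nearest to Tspan8 were Mir1191 (0.432), Lgr5 (0.581), Ptgds (0.791), Aqp1 (0.836) and Snora41 (0.855). The Sprr2a sum was nearest to Snora41 (0.952), Lgr5 (1.03), Chchd1 (1.07), Ptgds (1.08) and Mir1191 (1.09). Psca, Tspan8 and the Sprr2a sum were also close to one another, at 0.680 between Psca and Tspan8, 0.722 between Tspan8 and the sum and 1.01 between Psca and the sum.

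On the log2(FPKM + 1) scale Wfdc2 and Nkain4 had smaller differences and lay at a distance of 0.465 from each other and of at least 2.39 from Psca, Tspan8 and the Sprr2a sum. The genes nearest to Wfdc2 were Zmym1 (0.0907), Sod3 (0.173), Dtna (0.208), Cdh13 (0.215) and the keratin Krt4 (0.268). Those nearest to Nkain4 were Sprr2a3 (0.315), Cd109 (0.364), Oit1 (0.374), Pi15 (0.466) and Zmym1 (0.472). Aqp1, a water channel, had 0.871 and 0.939 FPKM in the distal and 19.3 and 56.3 FPKM in the proximal libraries, and Sod3, an extracellular superoxide dismutase, 11.6 and 12.5 against 58.8 and 89.0 FPKM. Mir1191, Snora41, Chchd1 and Zmym1 were listed at 0 in both distal libraries. With 4 libraries and a contrast that chose the members, these distances only describe likeness on this scale, and the order of the members' differences changes with the pseudocount.

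Per library, 10105 to 11397 genes reached 1 FPKM. No total of fragments was found in the labels or files, and the absolute depth is unknown. For transcripts of 1 to 10 FPKM, the authors' bounds lay a median of 13.8% to 14.8% of the value away from it, and for those of 10 to 100 FPKM 6.40% to 7.14%.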

How the data were processed

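RNA of 4 sorted stromal libraries was analysed. Per the labels' protocols, cDNA was made with the SMART-Seq v4 kit, a PCR-based method without strand information, so a gene and its antisense partner cannot be separated. Bcl2fastq 1.8.3, TopHat2 0.6, Cufflinks 0.0.6 and mm10 are named, without role or order, per the submitters' processing notes. The deposited values are FPKM per transcript, with bounds, and a coverage signal, per the file headers. The coverage signal was read only as its median per FPKM, 5.22 to 6.34 over the libraries.

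Gene names were assigned by position, using GENCODE M21, from span overlap times length similarity of at least 0.8, otherwise by ends within 100 bp of exons of 1 gene, or a similarity of at least 0.5 with other genes under 0.25. This named 54908 of 63241 transcripts (96.2% of FPKM). FPKM was summed per gene. Of genes at the test minimum, 7 with a failed or capped estimate were left out, as were 312 unnamed transcripts. Values were tested as log2(FPKM + 1) with limma 3.58.1 in R 4.3.3, two-sided, with a mean trend and a threshold of 0.05. The fit was tested on simulated data with the same small spread set for every gene, which does not measure its power in these data. Python 3.11.15, pandas 2.3.3, numpy 2.4.6 and matplotlib 3.10.9 did the rest.

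The 6 genes and all lists were chosen with earlier results of these data known. The text names, per list, genes with regions that did not overlap and a mean of at least 1 FPKM, up to 4 by size of difference, the 2 most abundant cell type markers, the 5 nearest genes per member, and genes of the sort and of epithelium. Further genes were named after their values were seen, among them Upk2, Upk3a, Msln, Lrrn4, Gpm6a, Muc16, Flg, Lor, Slpi and Wfdc6a.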

Additional observations from a re-analysis of the deposited data

How the results depend on the processing

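Alternatives covered the pseudocount, the filter, 2 scalings, the mean trend, stricter naming, the highest transcript only, failed estimates kept, the deposited bounds, a replicate block and leaving out each library. All 98 values of the 6 genes and the Sprr2a sum under them stayed above 0 on the log2 scale, from 1.92 to 8.06. The contrast chose these genes, so their sign was set in advance. Several alternatives, such as the block and the filters, leave the difference of a gene unchanged, so the 98 values are not separate checks. The Sprr2a copies and Wfdc2 had no transcript that met the stricter naming. A pseudocount of 0.1 raised the median difference of the members, with the Sprr2a copies summed, from 4.94 to 6.36, and took Psca from 5.02 to 8.06, Wfdc2 from 2.53 to 5.59 and Nkain4 from 2.58 to 3.89. The long Sprr2a models, an alternative chosen after seeing the data, gave 3.14 for the sum against 5.61.

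With 1 proximal library left out, Psca stood at 6.03 without proximal replicate 2 and at 4.01 without proximal replicate 3, and Nkain4 at 3.16 and 1.99. With region as the only term, 0 genes were called in either direction. With the library number as a replicate block 304 genes were called higher in proximal and 147 higher in distal stroma. No label says what a number marks, so pairing is not established, but Pearson's r across tested genes, which are not independent, was 0.952 between the libraries numbered 2 and 0.952 between those numbered 3, against 0.911 between the distal and 0.869 between the proximal libraries. With 1 library left out, calls ranged from 0 to 36 higher in proximal and from 0 to 5 higher in distal stroma. Without distal replicate 2 they were 36 and 4, without distal replicate 3 they were 21 and 5, and without either proximal library 0. The lone library of a region is then assumed to vary like the other region. Under quantile normalization the median over all genes shifted by -0.12 (log2). Of 234 alternative values of list medians, 193 moved by no more than the spread between numbers.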
